A study of Mus musculus with 82 samples.

Results

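The SLAM family genes of the mouse chromosome 1 lupus locus, Slamf1, Slamf6, Slamf7, Cd48, Cd84 and Ly9, were read in naive CD4 T cells together with the X-linked Sh2d1a, whose product is the adaptor SAP of most receptors of the family. The probe sets annotated to these symbols were taken, and each of the 7 genes had 1 probe set, so 7 of 19752 genes with a probe set of their own are described. Cells of male mice aged 6 weeks, per the labels (the series text gives a younger age at delivery), were sorted from pooled spleens as CD3+, CD4+ and CD62L+. The series text also speaks of bone marrow granulocytes and of another number of probes; the name used here, naive CD4 T cells, follows the sample labels. Cells carrying CD25 or surface markers of CD8 T cells, B cells, NK cells, dendritic cells, granulocytes or red cells were excluded. The 82 Affymetrix ST1.0 arrays fell into 40 strain groups, with 2 arrays in 38 groups, 5 arrays of C57BL/6J and a single array of SWR/J.

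The 4 C57-type strains were C57BL/6J, C57BL/10J, C57BLKS/J and C57L/J (11 arrays). The other 36 groups (71 arrays) were 129S1/SvImJ, A/J, AKR/J, BALB/cByJ, BPL/1J, BTBR T+ tf/J, C3H/HeJ, C57BR-titled, CAST/EiJ, CBA/CaJ, CBA/J, CE/J, DBA2-titled, DDY/JclSidSeyFrkJ, FVB/NJ, JF1/Ms, KK.Cg-Ay/J, LGJ, LP/J, MA/MyJ, MRL/MpJ, MSM/Ms, NOD/ShiLtJ, NON/ShiLtJ, NOR/LtJ, NZB/BINJ, NZW/LacJ, P/J, PL/J, PWD/PHJ, RIIIS/J, SEA/GnJ, SJL/J, SM/J, SWR/J and WSB/EiJ. The titles and background labels conflict for a pair of groups, C57BR in the title against CBA/CaJ in the label, and DBA2 against DBA/1LacJ, and each was kept as a group under its title. No treatment was given to any group. The labels name alleles in KK.Cg-Ay/J, which carries the yellow agouti allele Ay, and in BTBR T+ tf/J, which carries tufted (tf), and the strains differ in many natural alleles. The C57-type class is a statement of strain names, since no genotype of the locus was measured here. The 4 strains also share ancestry outside the locus, and C57BLKS/J is known to carry segments of another strain.

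SLAM receptors are immunoglobulin-family surface proteins of blood cells. SLAMF1, SLAMF6, SLAMF7, CD84 and LY9 each bind their own kind on a neighbouring cell, while CD48, which is anchored in the membrane by a lipid and has no signalling tail, is the ligand of CD2 and of CD244. Tyrosine motifs in the tails of SLAMF1, SLAMF6, CD84 and LY9 bind SAP, the product of Sh2d1a, which brings in the kinase FYN. In its absence, inhibitory phosphatases bind instead. SLAMF7 signals mainly through the related adaptor EAT-2. In CD4 T cells the family is known for help to germinal centre B cells, and it is needed for NKT cell development. The gene cluster lies in a lupus susceptibility region in which laboratory strains carry either a C57-type haplotype or a haplotype of another type.

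RefSeq promoters (GRCm38.p6, from 250 bases before to 50 bases after the start) were found for 5 of the 7 genes, Slamf1, Slamf6, Slamf7, Cd48 and Cd84. Those of Cd48 and Slamf6 are shown because these were the 2 members whose levels differed most firmly between strains. Capitals mark the ETS core AGGAAG or its reverse complement CTTCCT, and the RUNX core TGTGGT or its reverse complement ACCACA. The reference genome is that of C57BL/6J, a C57-type strain, and sequences of the other strains were not used here. The Cd48 promoter is at chr1:171681742-171682041, plus strand, and the Slamf6 promoter at chr1:171917212-171917511, plus strand.
Cd48: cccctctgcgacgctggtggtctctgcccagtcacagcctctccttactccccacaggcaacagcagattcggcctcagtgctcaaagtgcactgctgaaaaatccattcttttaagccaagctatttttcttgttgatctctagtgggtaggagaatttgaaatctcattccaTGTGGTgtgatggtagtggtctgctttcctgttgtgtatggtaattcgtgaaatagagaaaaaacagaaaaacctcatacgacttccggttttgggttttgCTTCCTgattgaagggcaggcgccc
Slamf6: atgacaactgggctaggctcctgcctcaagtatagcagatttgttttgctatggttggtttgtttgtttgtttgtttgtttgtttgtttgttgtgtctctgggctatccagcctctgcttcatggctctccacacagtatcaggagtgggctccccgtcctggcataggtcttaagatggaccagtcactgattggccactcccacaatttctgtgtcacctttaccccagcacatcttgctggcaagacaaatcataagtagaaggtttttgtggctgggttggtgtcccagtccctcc
The Cd48 window held 1 ETS core, on the minus strand, and 1 RUNX core, on the plus strand, and the 2 did not overlap. The Slamf6 window held 0 of either. Among the other windows, Slamf1 held 2 ETS cores, Slamf7 held 1, and Cd84 held 1 ETS core and 1 RUNX core. Of all 32851 promoter windows, 35.4% held the ETS core and 16.8% the RUNX core on either strand, so a match here is no more than a description of the letters.

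Array medians lay between 102.1 and 141.8 linear intensity units, and the median correlation of log2 values was 0.995 within strains and 0.988 between strains. The mean level of 10 naive T cell marker genes, such as Cd4 and Cd3e, was 11.91 to 12.09 (log2) in the C57-type strains and 11.83 to 12.18 in the other strains. The mean level of 10 B cell marker genes was 5.72 to 5.94 in the C57-type strains and 5.58 to 7.14 in the other strains. The highest B cell level was in PL/J, where the arrays stood at 5.85 and 8.43, and in A/J the arrays stood at 5.90 and 7.18. The PL/J array at 8.43 also had a neutrophil level of 7.55 against 5.51 on the other array. Its erythroid level was 8.52 against 6.75, its myeloid level 7.07 against 6.02 and its CD8 T cell level 7.99 against 7.16. The A/J array at 7.18 had an erythroid level of 8.30 against 6.79. Its neutrophil (5.50 against 5.55) and CD8 T cell (7.34 against 7.39) levels were not higher. C57BL/6J replicate 5 also stood above the other 4 arrays of its strain, with a B cell level of 6.22 (the others 5.84 to 5.93), a dendritic cell level of 6.43 (5.66 to 5.89), a myeloid level of 6.32 (5.88 to 5.96), a neutrophil level of 5.70 (5.06 to 5.34), an erythroid level of 6.97 (6.26 to 6.45) and a CD8 T cell level of 7.71 (7.26 to 7.52). None of the genes in the 12 marker lists passed the test in the C57-type comparison, which only 0.148% of all probe sets passed.

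Of the 7 genes, 4 ranked among the brighter probe sets of these cells. The mean intensity was 2002 for Slamf6, above 95.8% of probe sets, 1744 for Ly9, 1377 for Cd84 and 832 for Cd48. Slamf1 averaged 477 and Sh2d1a 377. Slamf7, whose product is best known on NK and plasma cells, averaged 56.7, above only 28.9% of probe sets and under the median of all values, 113.1. Probe sets differ in how they respond to RNA, so these ranks do not order the genes by amount.

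All 7 genes varied between strains beyond the spread between arrays of a strain (limma moderated F-test over 40 groups, adjusted over 24922 probe sets). The adjusted p was 3.32e-12 for Slamf6, 3.22e-09 for Cd48, 3.52e-07 for Slamf1, 0.000354 for Cd84, 0.0027 for Slamf7, 0.00274 for Sh2d1a and 0.0104 for Ly9. Of all probe sets, 47.6% passed this test, so passing is common in this panel. It is more common among brighter probe sets: with the dimmest 40% left out, 10826 of 14953 passed. The share of variance lying between strains (intraclass correlation) was 0.82 for Slamf6 and 0.79 for Cd48, followed by 0.68 for Slamf1 and 0.51 for Cd84. It was 0.42 for both Ly9 and Sh2d1a and 0.39 for Slamf7, so for these 3 genes more of the variance lay between arrays of a strain than between strains. Among the 36 other strains alone all 7 genes again passed, against 47.7% of probe sets, with adjusted p from 1.53e-12 for Slamf6 to 0.0299 for Ly9. Among the 4 C57-type strains 0 of 7 passed by the same limma F-test, against 5.26% of probe sets, with adjusted p from 0.132 for Slamf6 to 0.914 for Cd84. Fewer strains enter that last test, and a p above the threshold does not show that the 4 strains have like levels.

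**Figure D1:**
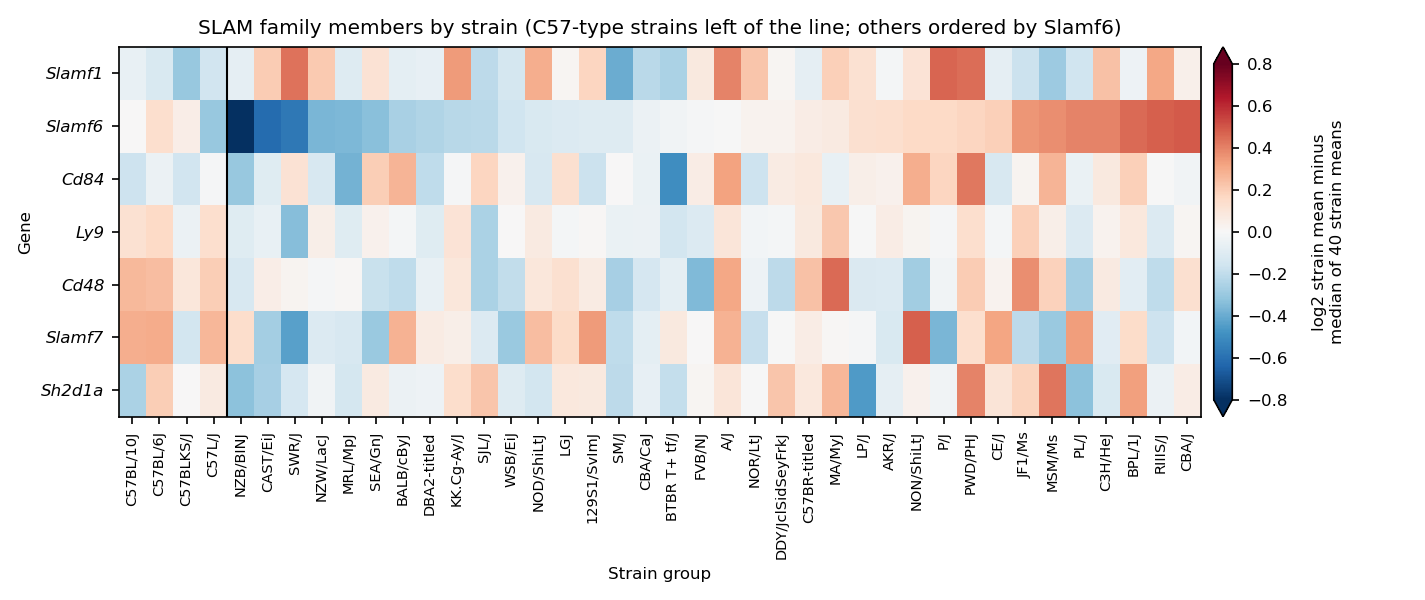
Each cell is the log2 strain mean of a gene minus that gene's median over the 40 strain means, with red above and blue below the median, and the 4 C57-type strains stand left of the line. Slamf6 runs from blue in NZB/BINJ to red in CBA/J, and the 4 C57-type strains all lie below the median for Slamf1 and Cd84, above it for Cd48, and on both sides of it for the other 4 genes.

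The class comparison asks whether strains of the C57-type haplotype differ from the others in transcript level of these genes. With the strain as the replicate (4 against 36 strain means), 0 of 7 genes passed at an adjusted p of 0.05 in limma, against 0.148% of probe sets (37 of 24922), with 0.112% higher (28) and 0.0361% lower (9). The lowest adjusted p among the members was 0.9999, and 1 of the 7, Cd48, was under 0.05 before adjustment. The median log2 difference of the members was 0.00, the same as over all probe sets (0.00). In no member did the C57-type strains all lie above or all lie below the others, a pattern found in 0.0161% of probe sets in each direction. The 95% intervals of the differences ran from -0.44 at the lowest to 0.41 at the highest. In a fit that takes only the spread between arrays of a strain as error, chosen after seeing the data, 2 of 7 genes passed, Cd48 and Slamf1, against 8.24% of probe sets (4.57% higher and 3.68% lower). That fit speaks of these 40 groups and not of strains in general.

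**Figure D2:**
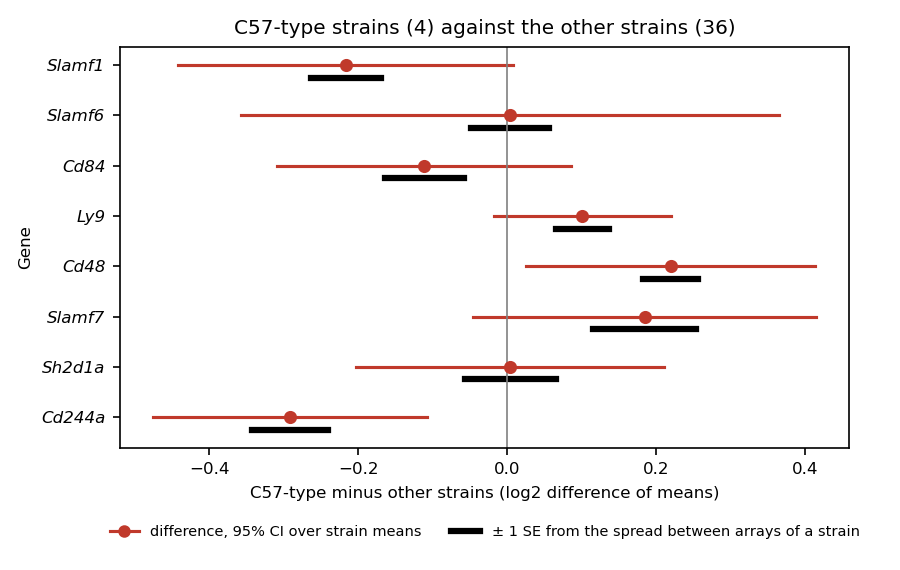
Points are C57-type minus other strains on the log2 scale, red lines the 95% confidence intervals over 4 and 36 strain means, and black bars 1 SE either side of the difference when only the spread between arrays of a strain is used. The intervals of Cd48 (0.03 to 0.41) and Cd244a (-0.47 to -0.11) leave out 0, and the others cross it.

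Slamf6 encodes the self-binding receptor Ly108, which is known to be spliced into isoforms that differ between haplotypes, and 1 value per gene cannot separate these. The C57-type strain means were 1644 in C57L/J, 2033 in C57BL/10J, 2101 in C57BLKS/J and 2228 in C57BL/6J, against a lowest of 787, a median of 2021 and a highest of 2845 in the other 36 strains. The C57-type strains lay inside the range of the others, with 6 other strains below and 11 above all of them. The geometric mean was 1989 in C57-type strains (SD 0.19 log2, n = 4) and 1984 in other strains (SD 0.36 log2, n = 36), a log2 difference of 0.00 ± 0.18 (SE). The class accounted for 0.001% of the variance between strains. That value turns slightly negative under quantile normalization (-0.029) or without NZB/BINJ (-0.034).

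NZB/BINJ, a parent of the classic lupus-prone hybrid, had the lowest Slamf6 level. Its arrays read 893 and 694, against 2364, 2110, 2032, 2234 and 2427 in C57BL/6J, and the 2 strains did not overlap. The log2 difference from C57BL/6J was -1.50 ± 0.13 (SE), with an adjusted p of 1.97e-13 by limma. Next came CAST/EiJ with 1407 and 1245, SWR/J with a single array at 1366, NZW/LacJ with 1559 and 1594, and MRL/MpJ with 1869 and 1334. The gap from NZB/BINJ up to CAST/EiJ, 0.75 on the log2 scale, was the widest of the 39 gaps between neighbours in the order of strain means. The replicate SD was 0.15, and only 2 other gaps exceeded it, from SWR/J to NZW/LacJ and from CE/J to JF1/Ms. All other neighbours in the order differed by less than that. In the 39 contrasts of a strain with C57BL/6J, a set added after the values were seen, 8 strains were lower for Slamf6 and 0 higher. The lower ones were NZB/BINJ, CAST/EiJ, SWR/J, NZW/LacJ, MRL/MpJ, SEA/GnJ, BALB/cByJ and the DBA2-titled group, 20.5% of the 39. SWR/J has 1 array, and every call for it assumes that it varies like the other groups, which supply the spread. Over all probe sets and these contrasts, 7.41% of tests were called, 5.14% lower and 2.27% higher, and all of them share the same C57BL/6J arrays. These shares, which also stand beside the other genes below, were not matched to any gene for brightness. Passing the F-test was more common among brighter probe sets, and whether these calls were too was not tested. For C57BL/10J the lean to lower calls depended on the scaling: 81.3% of the calls were lower, and after quantile normalization 55.2%. With array medians centred, the lower share went from 69.9% to 63.4% for C57BLKS/J and from 77.0% to 67.8% for C57L/J. The lean over all 39 contrasts was not tested under another scaling. At the top stood CBA/J with 2767 and 2926, RIIIS/J with 2567 and 3111 and BPL/1J with 2686 and 2883. CBA/J was 0.35 ± 0.13 above C57BL/6J on the log2 scale, with an adjusted p of 0.153. With the median of each array centred, 5 strains were lower, under quantile normalization 4 were higher, and 1 was higher without C57BL/6J replicate 5. In bulk RNA such as this, fewer cells that express a gene and less RNA per cell cannot be told apart.

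**Figure D3:**
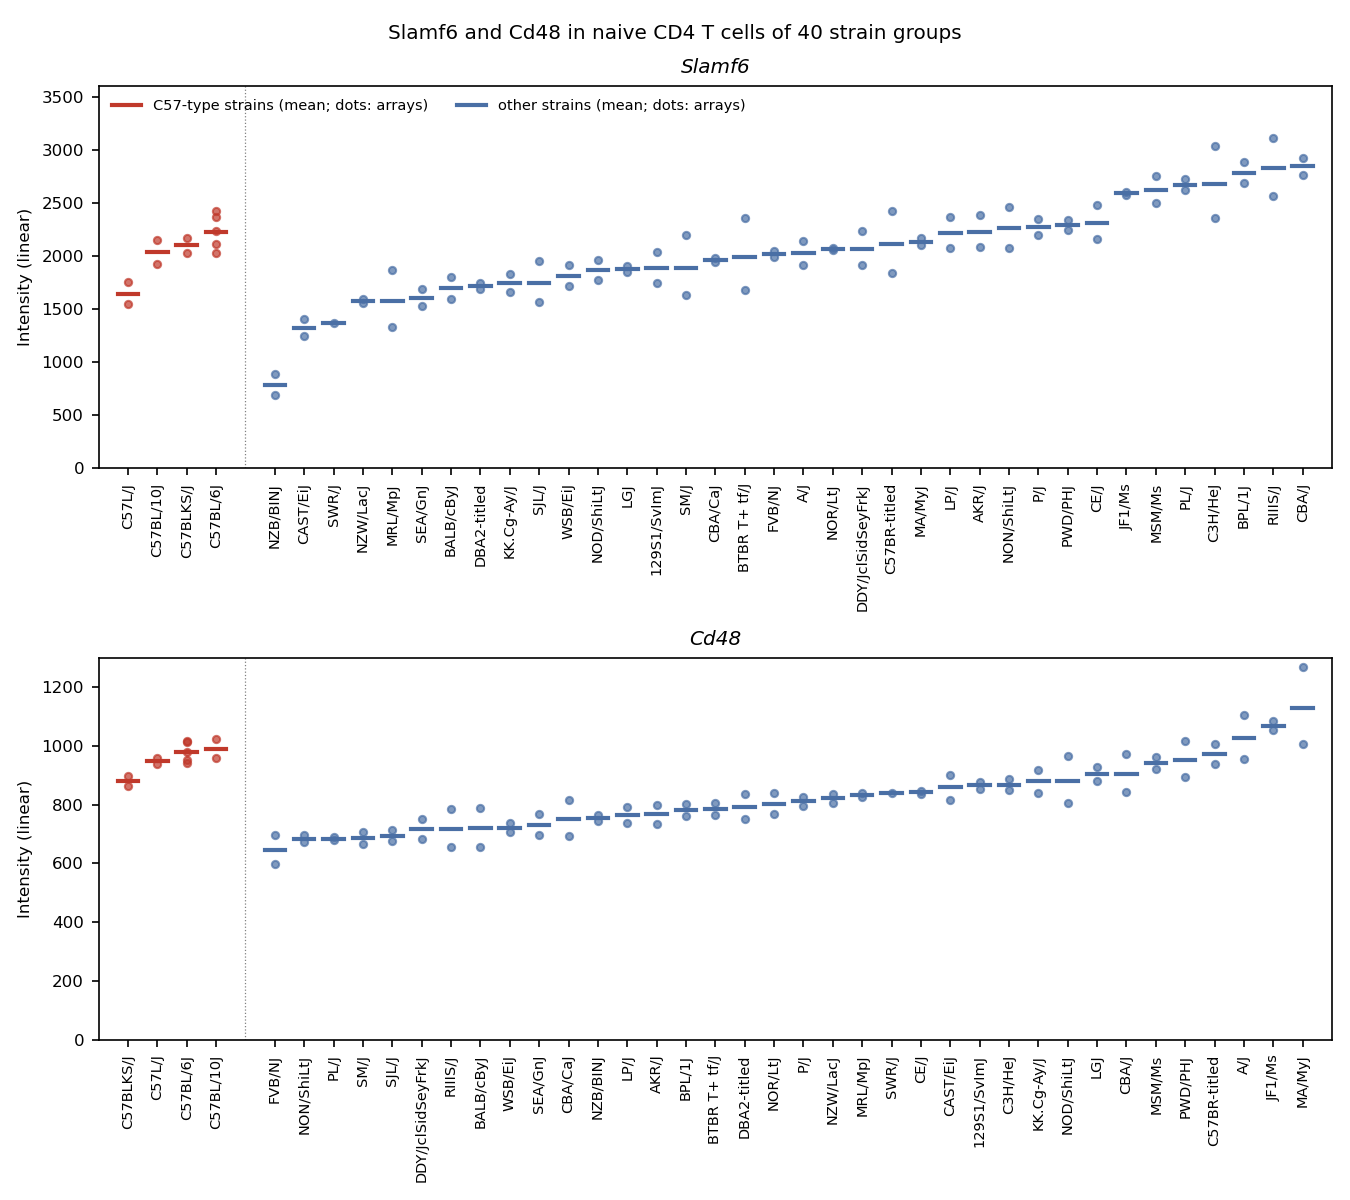
Linear intensities of Slamf6 and Cd48, with dots for arrays and bars for strain geometric means, the 4 C57-type strains left of the dotted line and the other 36 in order of level. NZB/BINJ sits alone at the low end for Slamf6 (787), and the 4 C57-type strains of Cd48 (881 to 989) lie in the upper part of the others' range.

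Slamf1 encodes SLAM itself, a self-binding co-stimulatory receptor. The C57-type strain means were 451 in C57BL/10J, 430 in C57BL/6J, 422 in C57L/J and 380 in C57BLKS/J, against a lowest of 356, a median of 479 and a highest of 648 in the other strains. Of the 36 other strains 22 lay above all 4 C57-type strains and 1, SM/J, lay below them. The geometric mean was 420 in C57-type strains (SD 0.10 log2, n = 4) and 488 in other strains (SD 0.22 log2, n = 36), a log2 difference of -0.22 ± 0.11 (SE), 95% interval -0.44 to 0.01, unadjusted p 0.0582 and adjusted p 0.9999 by limma. With only the spread between arrays as error the same difference had an SE of 0.05 and an adjusted p of 0.000825. Against C57BL/6J alone, 8 strains (20.5% of 39) were higher and 0 lower, where 2.27% of such tests over all probe sets were called higher. P/J led with 622 and 675, against 402, 432, 443, 458 and 417 in C57BL/6J, a log2 difference of 0.59 ± 0.11 with an adjusted p of 0.000245 by limma. PWD/PHJ followed with 664 and 614. The other higher strains were SWR/J, on its 1 array and the other groups' spread, A/J, KK.Cg-Ay/J, RIIIS/J, NOD/ShiLtJ and CAST/EiJ. The count is 14 after quantile normalization and 4 with array medians centred. No neighbours in the order of strain means were separated by more than the replicate SD of 0.13.

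Cd84 encodes another self-binding receptor, which prolongs contacts between T and B cells. The C57-type strain means were 1224 in C57BL/10J, 1237 in C57BLKS/J, 1330 in C57BL/6J and 1364 in C57L/J, against a lowest of 975, a median of 1403 and a highest of 1841 in the other strains. There were 22 other strains above all 4 and 5 below, and the log2 difference was -0.11 ± 0.10 (SE). BTBR T+ tf/J was lowest, with arrays that read 1250 and 761. PWD/PHJ was highest, with close arrays at 1830 and 1852. Against C57BL/6J only these 2 strains passed, BTBR T+ tf/J at -0.45 ± 0.13 (adjusted p 0.0105 by limma) and PWD/PHJ at 0.47 ± 0.13 (adjusted p 0.00653 by limma). They were 5.13% of the 39 strains, where 7.41% of such tests over all probe sets were called. PWD/PHJ lost its call under the replicate block, quantile normalization gave 5 higher strains, and without C57BL/6J replicate 1 there were 2.

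Ly9 encodes CD229, a self-binding receptor abundant on T cells, and it spanned the narrowest range of the 7, with 1.47-fold between the highest and lowest strain means. The C57-type strain means were 1931 in C57BL/6J, 1900 in C57L/J, 1880 in C57BL/10J and 1677 in C57BLKS/J, against a lowest of 1368, a median of 1725 and a highest of 2009 in the other strains. The groups overlapped, and the log2 difference was 0.10 ± 0.06 (SE). SWR/J, with its single array at 1368, and SJL/J, with 1529 and 1385, stood at the low end. The gap from SJL/J to BTBR T+ tf/J was the only gap above the replicate SD of 0.09. Against C57BL/6J, 8 strains (20.5% of 39) were lower and 0 higher, where 5.14% of such tests over all probe sets were called lower. SJL/J stood at -0.41 ± 0.09 (adjusted p 0.00061 by limma). Without C57BL/6J replicate 5, whose value of 2121 is the highest of its 5 arrays and whose B cell, dendritic and myeloid marker levels, whose part was not tested, are also the highest of the 5, 4 strains were lower, and without replicate 1, 5. Quantile normalization and the replicate block each gave 4.

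Cd48 encodes the ligand of CD2 and CD244 and was the member that came nearest to a class difference. C57BL/6J arrays read 1016, 1012, 941, 979 and 952, C57BL/10J arrays 957 and 1023, C57L/J arrays 957 and 939, and C57BLKS/J arrays 864 and 899. The other 36 strain means had a lowest of 646 in FVB/NJ, a median of 807 and a highest of 1130 in MA/MyJ. Of them 27 lay below all 4 C57-type strains, and 3, A/J, JF1/Ms and MA/MyJ, lay above. The geometric mean was 949 in C57-type strains (SD 0.08 log2, n = 4) and 815 in other strains (SD 0.19 log2, n = 36), a log2 difference of 0.22 ± 0.10 (SE), with an unadjusted p of 0.0277 and an adjusted p of 0.9999 by limma. With only the spread between arrays as error the SE was 0.04 and the adjusted p 1.37e-05. The class accounted for 11.6% of the variance of Cd48 between strains, the largest share among the 7 genes.

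Against C57BL/6J, 17 of 39 strains (43.6%) were lower for Cd48 and 0 higher, where 5.14% of such tests over all probe sets were called lower. That 5.14% was not matched to Cd48 for brightness. FVB/NJ read 698 and 598, a log2 difference of -0.60 ± 0.09 (SE) with an adjusted p of 1.63e-06 by limma. NON/ShiLtJ read 671 and 696 and PL/J 680 and 689, so each of these strains lay under every C57BL/6J array. The count was 17 without any 1 of the C57BL/6J arrays and 11 with array medians centred. MA/MyJ, the highest strain, had arrays at 1267 and 1007 that differed by more than the gap to the next strain.

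Slamf7 was dim, and its values are the least firm of the set. The C57-type strain means were 68.3 in C57BL/6J, 67.9 in C57BL/10J, 67.0 in C57L/J and 50.3 in C57BLKS/J, against a lowest of 41.2, a median of 55.5 and a highest of 77.5 in the other strains. The log2 difference was 0.18 ± 0.11 (SE). The arrays with high B cell marker levels were also high for Slamf7. The same arrays stood above the other array of their strain for plasma cell and NK cell markers. Plasma cell levels were 7.41 against 6.69 in PL/J and 7.42 against 6.88 in A/J. NK cell levels were 5.55 against 5.32 in PL/J and 5.28 against 5.09 in A/J. The part of any of these cells in the Slamf7 values was not tested. PL/J read 98.9 on the array with the B cell level of 8.43 and 49.7 on its other array, and A/J read 80.6 on the array at 7.18 and 56.7 on its other array. Against C57BL/6J 7 strains were lower (17.9% of 39), where 5.14% of such tests over all probe sets were called lower. Without the arrays PL/J 2 and A/J 2 the count was 11. C57BL/6J replicate 5 read 90.2, where the other 4 read 58.2 to 68.5, and without it 3 strains were lower. That array is the one with the higher levels of other cells' markers, such as 6.22 for B cells and 6.43 for dendritic cells. Its plasma cell level was 7.10 (the others 6.68 to 6.74) and its NK cell level 5.34 (4.99 to 5.08). The part of any of these cells in the count was not tested. Under the replicate block 1 strain was lower. The mean level of 8 regulatory T cell markers was 8.39 to 8.66 (log2) in the C57-type strains and 7.79 to 9.30 in the other strains, and the part of these cells in the Slamf7 values was not tested.

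Sh2d1a encodes the adaptor SAP. The C57-type strain means were 429 in C57BL/6J, 394 in C57L/J, 376 in C57BLKS/J and 314 in C57BL/10J, against a lowest of 274, a median of 370 and a highest of 505 in the other strains. The groups overlapped widely, and the log2 difference was 0.00 ± 0.10 (SE), which turns to -0.0048 under quantile normalization and -0.0054 without NZB/BINJ. LP/J was lowest, with arrays at 265 and 283, against 449, 409, 486, 426 and 383 in C57BL/6J, a log2 difference of -0.65 ± 0.15 with an adjusted p of 0.00196 by limma. NZB/BINJ, with 306 and 291, PL/J, with 344 and 258, and CAST/EiJ, with 286 and 340, were also lower, and 0 strains were higher (1 after quantile normalization). The 4 lower strains were 10.3% of the 39, where 5.14% of such tests over all probe sets were called lower. The lower PL/J array is the one with the B cell level of 8.43, and without the arrays PL/J 2 and A/J 2 the count of lower strains was 5. NZB/BINJ and CAST/EiJ were thus lower than C57BL/6J for both Slamf6 and its adaptor, and the same C57BL/6J arrays serve both comparisons. MSM/Ms stood at the top, with 435 and 585.

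Each of the other 3 C57-type strains was set against C57BL/6J, and no member passed in these 3 contrasts. They were not set against each other. For C57BL/10J against C57BL/6J, where 2.49% of probe sets passed, the differences ran from -0.45 (Sh2d1a) to 0.07 (Slamf1), and the lowest adjusted p by limma was 0.0821, for Sh2d1a. For C57BLKS/J, where 1.67% passed, the lowest adjusted p was 0.232, for Slamf7 at -0.44. For C57L/J, where 1.74% passed, it was 0.0597, for Slamf6 at -0.44. That Slamf6 difference passed in 3 settings, with adjusted p of 0.0371 with the dimmest 40% of probe sets left out, 0.0444 with an offset of 32 and 0.0379 with a trended and robust prior. It passed in no other setting, and with all arrays of both strains kept its adjusted p by limma rose to 0.325. Without C57L/J replicate 2 the difference was -0.35, and without C57L/J replicate 1 it was -0.53. The Sh2d1a difference of C57BL/10J reached 0.0494 under the replicate block. It passed in no other setting, and with all arrays of both strains kept its adjusted p by limma rose to 0.256. That difference was -0.55 under the replicate block and -0.29 under quantile normalization.

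The C57BR-titled group, labelled CBA/CaJ, was set against both C57BL/6J and CBA/CaJ. Against C57BL/6J 0 of 7 genes passed, with a lowest adjusted p of 0.958, while 1.45% of probe sets did. Against CBA/CaJ 2.68% of probe sets passed, and 1.48% were higher. Of the 7 genes 1 passed, Cd48. It read 937 and 1006 in the C57BR-titled arrays, against 694 and 816 in CBA/CaJ arrays, with no overlap. The log2 difference was 0.37 ± 0.11 (SE) with an adjusted p of 0.0459 by limma. The call was lost without either C57BR-titled array (adjusted p 0.11 without replicate 1 and 0.522 without replicate 2), without CBA/CaJ replicate 1 (0.552), and under quantile normalization (0.123), array centring (0.146), a B cell covariate (0.0636) and the replicate block (0.0541). The difference itself stayed between 0.25, without CBA/CaJ replicate 1, and 0.48, without CBA/CaJ replicate 2. It was 0.42 with array medians centred or without C57BR-titled replicate 1. With the C57BR-titled group moved into the C57-type class, 94 probe sets passed the class comparison instead of 37.

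CAST/EiJ, JF1/Ms, MSM/Ms and PWD/PHJ, 4 strains derived from non-domesticus mouse subspecies, were set against the 32 other non-C57 strains. By limma on strain means 0 of 7 genes passed, whereas 8.17% of probe sets did (3.53% lower). Cd48 came nearest, with strain means of 858, 1069, 941 and 953 in these 4 strains and a geometric mean of 952, against 799 in the 32 strains. The log2 difference was 0.25 ± 0.09 (SE) with an adjusted p of 0.0897, and it passed under quantile normalization (0.0327), the replicate block (0.0235) and a fit of all arrays with strain as a random block (0.0174). It did not pass in the other settings with all 4 strains kept, where the adjusted p by limma rose to 0.247. Nor did it pass with any of the 4 strains left out (0.0698 to 0.363). Without JF1/Ms the Cd48 difference was 0.20. Slamf6 split these strains, with 1323 in CAST/EiJ and 2290.5 to 2625 in the other 3, and its log2 difference was 0.12 ± 0.19 (adjusted p 0.841 by limma).

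Beside the cluster, 20 measured genes on each side in RefSeq gene order were read in the same class comparison. Of these 40 genes 0 passed, against 0.148% of all probe sets, a share at which no call is to be looked for among so few genes. Their median absolute log2 difference was 0.04, equal to that of all probe sets (0.04). Cd244a, the gene adjoining Ly9, encodes CD244, the receptor for CD48. Its strain means were 57.1 in C57L/J, 57.3 in C57BLKS/J, 59.5 in C57BL/6J and 61.7 in C57BL/10J, against a lowest of 51.4, a median of 73.2 and a highest of 89.7 in the other strains, all under the median of all values. Of the 36 other strains 31 lay above all 4 C57-type strains and 3 lay below. The log2 difference was -0.29 ± 0.09 (SE), with an unadjusted p of 0.00259 and an adjusted p of 0.468 by limma, which reached 0.0485 with strain as a random block. With any of the 4 C57-type strains left out, the adjusted p was 0.993 or higher and the difference -0.28 to -0.31. On the array of PL/J with the high B cell level Cd244a read 117, against 68.9 on the other. Against C57BL/6J 10 of 39 strains (25.6%) were higher for Cd244a and 0 lower, where 2.27% of such tests over all probe sets were called higher. The count was 16 under a B cell covariate and 6 without C57BL/6J replicate 1 or replicate 3. In chromosome order the class difference was below 0 for Cd244a, above 0 for Ly9, Slamf7 and Cd48, and below 0 for Slamf1 and Cd84, and 0 of these genes passed.

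**Figure D4:**
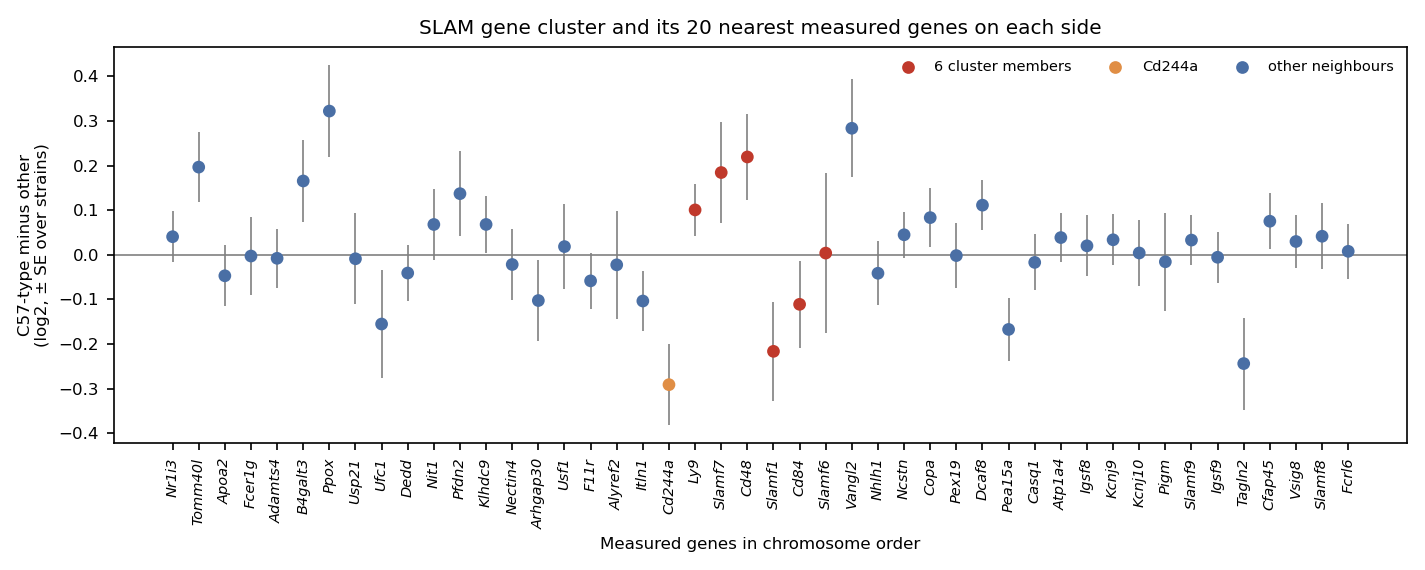
Class differences (C57-type minus other strains, log2, with SE over strains) of the 6 cluster members, Cd244a and the other measured neighbours, in chromosome order with even spacing. The members run from -0.22 (Slamf1) to 0.22 (Cd48), and outside the cluster Ppox (0.32), Vangl2 (0.28) and Tagln2 (-0.24) are as far from 0.

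The wider pathway was read from lists of genes. Among 17 measured ligands and signalling partners of the receptors, 15 varied between strains by the F-test, against 47.6% of all probe sets, and 1, Inppl1, passed the class comparison, against 0.148%. Inppl1 encodes an inositol phosphatase of the SHIP type. Its geometric mean was 136 in C57-type strains and 208 in other strains, a log2 difference of -0.61 ± 0.13 (SE) with an adjusted p of 0.0368 by limma. CE/J, with 130, and the C57BR-titled group, with 118, were as low as the C57-type strains. The adjusted p was 0.0577 with array medians centred and 0.109 to 0.33 when any of the 4 C57-type strains was left out. The difference itself was -0.61 centred and -0.57 to -0.64 with a strain left out. The adjusted p was also above the threshold without C57BLKS/J replicate 2 (0.088), C57L/J replicate 2 (0.0522), CE/J replicate 1 (0.0622) or RIIIS/J replicate 1 (0.0513). The signalling genes closest to SAP showed no class difference that passed, with Fyn at 0.01 ± 0.08 and Cd2, the other receptor for CD48, at 0.00 ± 0.09. In the subspecies comparison, 3 of the 17 were lower, against 3.53% of all probe sets, Cd2 at -0.46 (log2) (adjusted p 1.05e-06 by limma), Plcg1 at -0.36 (0.000451) and Fyn at -0.27 (0.00955), and 0 were higher.

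Of 15 genes of follicular helper and NKT cells downstream of SLAM and SAP, 10 varied between strains, against 47.6% of all probe sets. The class comparison was passed by 0 of them, against 0.148% of all probe sets. Icos, the co-stimulator needed for follicular help, spanned 3.88-fold between the highest and lowest strain means, and Bcl6, the lineage factor, spanned 2.64-fold. Of 6 other lupus candidate genes of chromosome 1, 2 varied, Fcgr3 and Fasl, and 0 passed the class comparison, against the same 0.148%. Among 5 other SLAM receptors and SAP-like adaptors 2 varied, Cd244a and Sh2d1b2, and Sh2d1b2 read only 17.9. Both of these counts lie under the 47.6% of all probe sets. That share depends on brightness, since 10826 of 14953 probe sets passed the same F-test with the dimmest 40% left out. The lists were not matched to it for brightness, so these counts do not set the lists apart.

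The members' strain patterns were weakly correlated in most pairs. Over 40 strain means, the 21 pairs of members had Pearson correlations from -0.06 to 0.63, with a median of 0.17. These are descriptions without a test, since strains share ancestry and the values of a strain share arrays. The highest was Cd48 with Ly9 (r 0.63, rho 0.67, and r 0.59 over the 36 other strains), and without the 2 strains farthest from the median of Cd48, JF1/Ms and MA/MyJ, r was 0.54. Within strains, where 81 arrays were set against their own strain mean, it was 0.17. Cd84 with Sh2d1a followed (r 0.50), and there the within-strain value was similar, 0.42. Cd48 ran against Cd244a, the gene of its receptor, with r of -0.65, rho of -0.58, r of -0.60 over the 36 other strains, -0.57 without JF1/Ms and MA/MyJ, and -0.35 within strains.

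**Figure D5:**
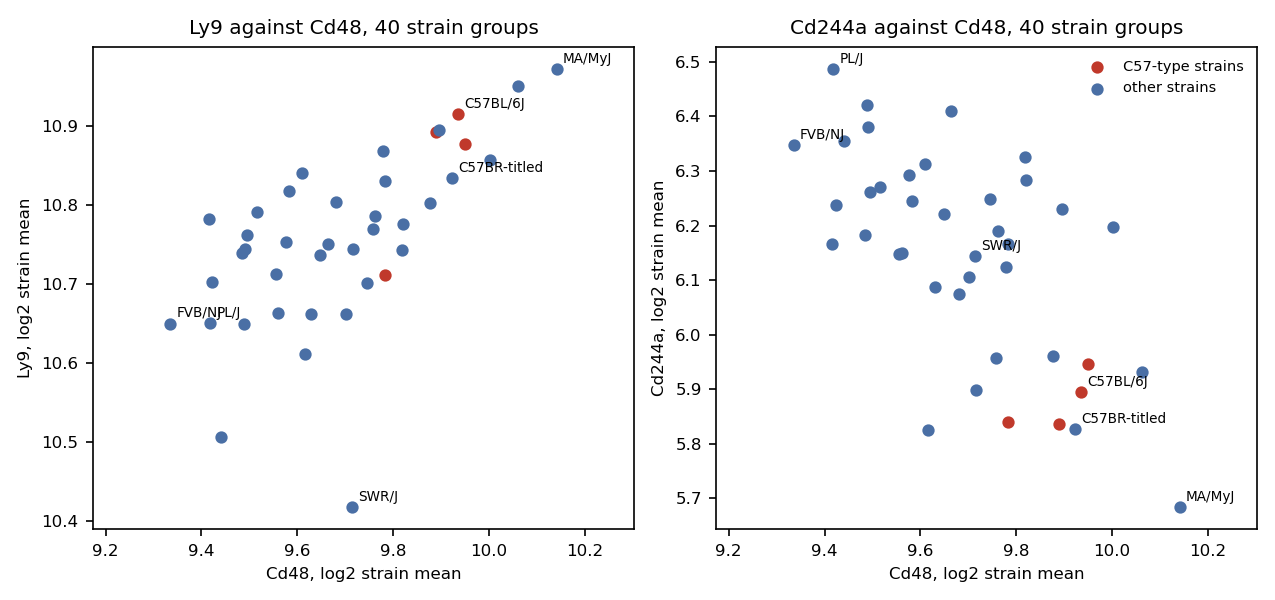
Log2 strain means of Ly9 (left) and Cd244a (right) against Cd48 for 40 strain groups, with C57-type strains in red and other strains in blue. Ly9 is higher where Cd48 is higher (r 0.63), with SWR/J apart, and Cd244a is lower there (r -0.65), with MA/MyJ at the far end.

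For each member the 3 probe sets with the most similar pattern over 40 strain means were taken from 10754 brighter probe sets with 1 symbol. For Slamf7 they were Foxp3 (r 0.64, and 0.74 over the 36 other strains), the regulatory T cell factor, Myb (0.63) and Ikzf3 (0.57). For Cd48 they were Cnih1 (0.77), the protease gene Ctsc (0.75) and the early activation marker Cd69 (0.72). For Cd84 they were Rabgap1l (0.78), Cep295 (0.78) and Trip11 (0.77), and for Sh2d1a Mrps18c (0.77), P2ry10b (0.77) and Zdhhc13 (0.72). Ly9 was most like Zfp87 (0.73), Sgk3 (0.73) and Gpr171 (0.72), and Slamf1 most like Fastkd3 (0.65), Prpf3 (0.63) and Bptf (0.63). Slamf6 had the lowest leading correlation of the 7, with Impact (0.60), Arrdc3 (0.59) and Zfp729a (0.57). Highest values among so many probe sets are large by choice, and r is over strains that share arrays.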

How the data were processed

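The authors deposited normalized intensity values on a linear scale, 1 for each probe set on each array. RMA and Affymetrix Power Tools were named per the submitters' processing notes, and their versions and the genome build are not given in the sources used here. Log2 of the deposited intensity was used with no further normalization or filter. Symbols came from the platform annotation (21425 probe sets with 1 symbol, 1399 with several, 2098 with none). The class and subspecies comparisons used limma 3.58.1 (lmFit, eBayes; R 4.3.3) on log2 strain means, each strain counting as 1 replicate. F-tests and pair contrasts used a fit of 82 arrays with 1 coefficient per group (42 residual degrees of freedom, 8.09 from the prior). Benjamini-Hochberg adjustment ran over 24922 probe sets, with a threshold of 0.05. The scripts were tested on simulated data.

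Named genes are the members, up to 4 genes of each list and up to 10 neighbours past the threshold, and 3 similar genes per member. Genes outside this rule, such as Cd244a, were chosen with their values in view. The members and lists were chosen with earlier results of these data known. Each array is a pool of mice. The p-values of the F-tests and pair contrasts measure the spread between pools of a strain. Those of the class and subspecies comparisons measure the spread between strain means. No batch is labelled. Replicate numbers were not used to pair samples in the main fits. Over 630 pairs of groups, deviations of same-numbered arrays correlated at a median of 0.00. The values ran from -0.63 to 0.57, and 31.6% of the pairs lay over 0.1. Whether some arrays shared processing cannot be told from these values. Alternatives were quantile normalization, centring on array medians, an offset of 32, leaving out the dimmest 40%, a trended and robust prior, strain as a random block, a B cell covariate, a replicate block, regrouping, and leaving out each array of the groups compared (for F-tests, each C57-type array) or each C57-type strain. The number of arrays limits the precision. Probe sequences were not used here, so whether DNA differences under the probes alter a value was not tested.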

Additional observations from a re-analysis of the deposited data

Results flagged for a closer look

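Slamf7 in C57BLKS/J, with a strain mean of 50.3, stood apart from the other 3 C57-type strains, which lay between 67.0 and 68.3. It was the only 1 of 24 groups checked in which the extreme value passed Dixon's criterion, and chance alone marks about 1 in 20 groups. Its arrays read 44.5 and 56.8. The difference from C57BL/6J did not pass in limma (adjusted p 0.232).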

How the results depend on the processing

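Every member passed the F-tests over all 40 and over the 36 other strains in all settings that gave a value, where only the 11 C57-type arrays were left out singly, and 0 members passed the class comparison in any setting except strains as fixed coefficients, where 2 passed. The class count of 37 probe sets became 142 with the replicate block, 214 with strain as a random block, 94 with the C57BR-titled group in the C57-type class, 64 without it, 63 without the non-domesticus strains and 2054 with strains as fixed coefficients, where 44.6% were lower, against 24.3% in the main setting. It was 20 to 25 without any 1 C57-type strain and 34 to 42 without any 1 array. The near-zero class differences reversed: Slamf6 to -0.029 under quantile normalization and -0.034 without NZB/BINJ (-0.019 to 0.027 with arrays left out, -0.051 to 0.095 with strains left out), Sh2d1a to -0.0048 and -0.0054 (-0.017 to 0.025 and -0.059 to 0.090). The count among the 4 C57-type strains, 1310, was 606 with centred medians (arrays left out 912 to 1824). Against C57BL/6J, C57BL/10J gave 330 under quantile normalization and 171 centred (arrays left out 145 to 1395), C57BLKS/J 268 centred (156 to 421), C57L/J 239 centred and 270 with the replicate block (170 to 434), and C57BR-titled 198 to 352 with arrays left out. C57BR-titled against CBA/CaJ gave 377 to 486, and the non-domesticus count of 2036 was 1357 to 2037 without a strain and 1892 to 2234 without an array. The cause was not tested. No setting with several probe sets per gene was run, since each member has 1, and Slamf7 and Cd244a have no value with dim probe sets left out.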
